A study of Mus musculus with 7 samples.

Results

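Transcripts for 10 genes of the Notch pathway were followed in C3H10T1/2 cells exposed to purmorphamine. They were 3 receptors (Notch1, Notch2 and Notch3), 2 ligands (Jag1 and Dll1) and 5 genes that respond to Notch (Hes1, Hey1, Hey2, Heyl and Nrarp), taken by gene symbol from a table of 18468 genes. All 10 had a row. C3H10T1/2 is a clonal mouse line of embryonic mesenchymal origin. Unmodified cells, with no virus, were kept without serum for 12 h and then for a further 48 h, still without serum, with purmorphamine at 2 μM, which activates Smoothened and so Hedgehog signaling (n = 4 libraries, numbered 5 to 8), or with 0.02% DMSO as vehicle (n = 3 libraries, numbered 2 to 4). Nothing in the labels says that the libraries came from separate cultures, so the tests measure the spread between libraries, which may be technical.

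Notch receptors are membrane proteins activated by ligands of the Delta and Jagged families on adjacent cells. Ligand binding exposes the receptor to ADAM proteases and then to γ-secretase, and the released intracellular domain joins the DNA-binding protein Rbpj and Mastermind coactivators in the nucleus. Genes of the Hes and Hey families, which encode basic helix-loop-helix repressors, and Nrarp, which encodes a feedback inhibitor, are the best known targets. In mesenchymal cells the pathway is known for restraining differentiation toward osteoblasts and adipocytes.

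Counts are sense-strand reads per gene, which the authors had resampled to equalize the libraries. Totals ran from 14337225 to 14342154 reads per library, so that an absence of reads leaves room for 3 reads (0.209 CPM), for counting error only. Gli1 and Ptch1, targets of Hedgehog signaling, served as a check of the treatment. Gli1 had 7 to 12 reads with DMSO and 2522 to 3171 with purmorphamine, and Ptch1 504 to 532 and 10296 to 11451. The 10 mesenchymal markers checked all passed the low-count filter and summed to between 352585 and 387548 reads per library. Of these, 5 rose and 2 fell by the calls described below, where 31.4% of all genes tested rose and 31.1% fell. Vim, which encodes vimentin, fell from 79220 to 81440 reads with DMSO to 41359 to 43378 with purmorphamine (1.95-fold). Pdgfra, Thy1 and Twist1 rose 1.56- to 1.69-fold. The other calls were smaller: Col1a2 fell 1.17-fold, and Col3a1 and Prrx1 rose 1.14- and 1.17-fold. Col1a1, Fn1 and Pdgfrb were not called.

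Of the 10 genes, 8 passed edgeR's filter on low counts, as did 12388 genes of the table. In edgeR's quasi-likelihood fit, with p-values adjusted over those 12388 genes by the Benjamini-Hochberg method and called under 0.2, 5 of the 8 (Hes1, Hey1, Jag1, Notch2 and Notch3) rose and 2 (Notch1 and Dll1) fell. Over all genes tested, 31.4% rose and 31.1% fell, so a call by itself was common. The absolute log2 fold change was at its largest in Hes1, and 2.62% of all genes tested had one at least as large. That share was 4.19% for Hey1, 6.13% for Notch1, 7.17% for Dll1, 12.1% for Jag1, 20.6% for Notch2, 32.7% for Notch3 and 80% for Hey2. The median log2 fold change of the 8 was 0.40, against 0.0038 over all genes tested. Because the genes were chosen with earlier results of these data known, these counts and this median are a description and no test of the pathway. In bulk RNA, a change in the number of cells that express a gene and a change in transcripts per cell cannot be told apart.

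**Figure D1:**
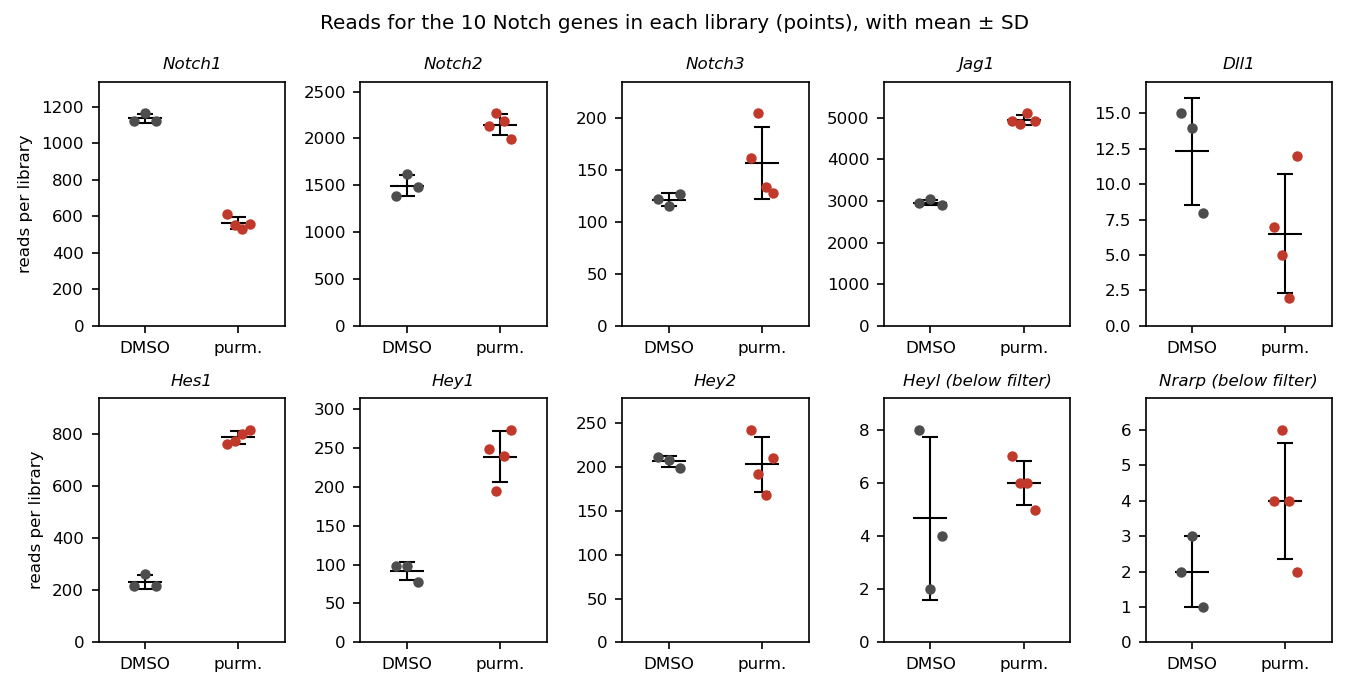
Reads per library (y axis, from 0) for each of the 10 Notch genes in DMSO (grey, 3 libraries) and purmorphamine (red, 4 libraries), with the mean and SD as black bars. Hes1, Hey1, Jag1 and Notch2 lie higher and Notch1 lower in every purmorphamine library, while the groups overlap for Dll1, Hey2, Heyl and Nrarp.

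Promoter sequences were available from RefSeq (GRCm38.p6) for 7 of the 10 genes: Notch1, Notch2, Notch3, Jag1, Dll1, Hey2 and Nrarp. Hes1, Hey1 and Heyl were not matched. Stretches of the 250 bases before the start are shown for the receptors that moved in opposite directions, Notch1 (chr2:26503825-26504072, minus strand) and Notch2 (chr3:98013288-98013526, plus strand), and for the targets that held a motif searched for, Hey2 (chr10:30842802-30843033, minus strand) and Nrarp (chr2:25180508-25180757, plus strand). Each runs 5′ to 3′ on the strand of the gene without the bases that GENCODE M21 places in an exon, and capitals mark the motifs.
Notch1: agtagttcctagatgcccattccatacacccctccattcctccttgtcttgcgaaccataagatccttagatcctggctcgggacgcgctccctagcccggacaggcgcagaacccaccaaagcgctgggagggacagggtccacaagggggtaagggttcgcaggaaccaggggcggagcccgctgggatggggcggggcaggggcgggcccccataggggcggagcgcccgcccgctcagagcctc
Notch2: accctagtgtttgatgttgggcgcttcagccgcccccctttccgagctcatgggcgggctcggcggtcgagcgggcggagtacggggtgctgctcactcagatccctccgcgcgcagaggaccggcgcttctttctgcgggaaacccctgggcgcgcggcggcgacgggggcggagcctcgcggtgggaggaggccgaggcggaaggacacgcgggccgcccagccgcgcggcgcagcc
Hey2: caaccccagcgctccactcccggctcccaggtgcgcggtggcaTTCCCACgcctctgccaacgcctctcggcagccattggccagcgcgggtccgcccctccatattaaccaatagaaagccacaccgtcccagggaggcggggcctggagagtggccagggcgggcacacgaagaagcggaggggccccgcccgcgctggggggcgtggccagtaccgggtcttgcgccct
Nrarp: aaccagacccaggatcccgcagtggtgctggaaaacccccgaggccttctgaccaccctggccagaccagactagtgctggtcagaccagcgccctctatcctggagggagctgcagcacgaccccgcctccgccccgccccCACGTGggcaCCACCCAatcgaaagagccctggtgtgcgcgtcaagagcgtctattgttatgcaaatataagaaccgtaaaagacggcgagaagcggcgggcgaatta
The core of the motif bound by Rbpj, TGGGAA, was searched on both strands. So was its longer form, GTGGGAA, which contains the core. The core of the motif bound by Gli factors was searched as CCACCCA. The E box was searched as CACGTG. Among 32851 promoters of the same length, 21.6% held TGGGAA, 5.42% GTGGGAA, 8.11% CCACCCA and 6.02% CACGTG. Hey2 was the only one of the 7 genes with an Rbpj motif in this window, in its longer form on the opposite strand from 207 to 201 bases before the start. Nrarp held CACGTG from 108 to 103 bases and CCACCCA from 98 to 92 bases before the start. No motif of the 4 was found in the windows of Notch1, Notch2, Notch3, Jag1 or Dll1, which says only that those letters are not within 250 bases of these RefSeq starts. The starts are not all the outer ends of the genes as annotated in GENCODE: that of Notch1 lies 12841 bases inside the gene and that of Jag1 124. For Dll1, RefSeq gave 2 starts, 1 of them 1049 bases inside the gene, and both windows lay wholly in annotated exons.

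The receptors moved in opposite directions. Notch1 (ENSMUSG00000026923, chromosome 2 from 26457903 to 26516663, minus strand, in GRCm38) had 1123, 1165 and 1125 reads with DMSO and 612, 555, 532 and 558 with purmorphamine. Every purmorphamine library lay below every DMSO library. The log2 fold change came to -1.06 ± 0.0557 (SE), with adjusted p = 8.12e-11 by edgeR, a level 2.08-fold lower.

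Notch2 (ENSMUSG00000027878, chromosome 3 from 98013527 to 98150361, plus strand), the receptor with most reads, had 1390, 1617 and 1483 reads with DMSO and 2132, 2268, 2189 and 1999 with purmorphamine. All 4 treated libraries were above the 3 controls, and the log2 fold change came to 0.47 ± 0.0573 (SE), with adjusted p = 3.22e-06 by edgeR. Notch3 (ENSMUSG00000038146, chromosome 17 from 32120820 to 32166852, minus strand), a receptor known from vascular mural cells, had 122, 115 and 127 reads with DMSO and 161, 204, 133 and 128 with purmorphamine. Its groups were 1 read apart in the deposited counts and overlapped after TMM scaling. The log2 fold change of 0.32 ± 0.144 (SE) had an adjusted p of 0.0792 by edgeR, whereas the exact permutation test, two-sided, gave p = 0.171. The call was lost without purmorphamine replicate 6 (log2 fold change 0.18, adjusted p = 0.231 by edgeR) and without DMSO replicate 3 (0.28, adjusted p = 0.21 by edgeR).

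Notch4, the remaining receptor, had 4 to 8 reads with DMSO and 0 to 8 with purmorphamine, and did not pass the filter. On the same strand, Gm42819 and Gm42820 lie within the bounds of Notch2 and Mir6996 within those of Notch1. None of these has a row of its own among the counts used here, so any reads from them cannot be told apart from those of the receptors.

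Because the receptors differ in length, their levels were also set per kilobase of transcript (the longest principal coding transcript in GENCODE M21). Summed over the 4 receptors, the level was 278 ± 12.9 reads per kb (SD, n = 3) with DMSO and 284 ± 14.2 (SD, n = 4) with purmorphamine, a difference smaller than either SD. The composition of that sum differed. Notch1 made up 43.1% ± 1.18 of it with DMSO and 21% ± 1.5 with purmorphamine, Notch2 51.1% ± 1.54 and 72% ± 1.39, and Notch3 5.45% ± 0.469 and 6.84% ± 1.2 (SD, n = 3 and 4). Notch4 was at most 0.43% in any library.

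**Figure D2:**
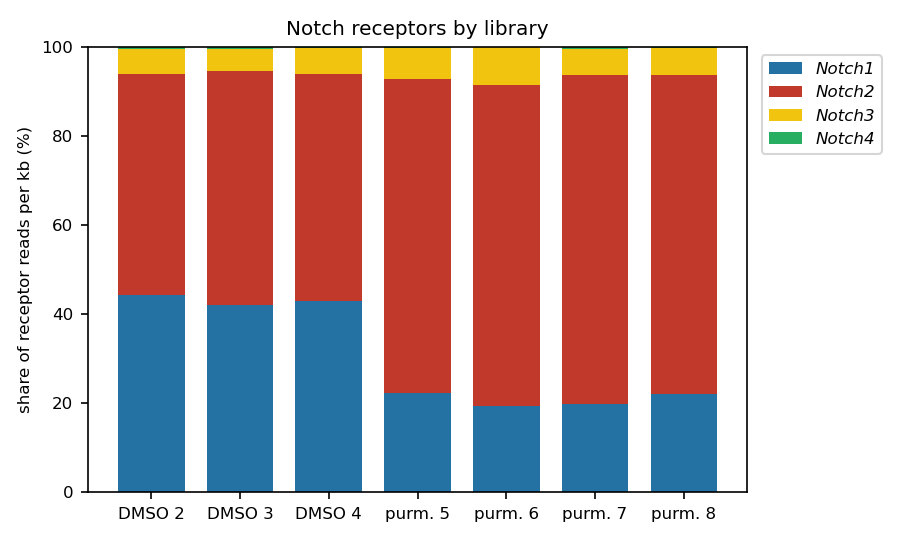
Share of each receptor in the summed receptor reads per kb of transcript (y axis, percent), one bar per library, for DMSO libraries 2 to 4 and purmorphamine libraries 5 to 8. Notch1 (blue) takes 42.0% to 44.4% of each DMSO bar and 19.5% to 22.4% of each purmorphamine bar, and Notch2 (red) takes 49.6% to 52.7% and 70.5% to 73.8%.

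A ratio of 2 genes within a library needs no scaling between libraries. The reads of Notch2 per read of Notch1 were 1.24, 1.39 and 1.32 with DMSO and 3.48, 4.09, 4.11 and 3.58 with purmorphamine, a ratio 2.9-fold higher. Those of Notch3 per read of Notch1 were 0.0987 to 0.113 and 0.229 to 0.368. Neither ratio overlapped between treatments, and a two-sided exact permutation of the libraries gave p = 0.0286 for each, which is the lower limit for 3 against 4, or 0.0343 once adjusted over the 6 ratios tested.

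Of the ligands, Jag1 (ENSMUSG00000027276, chromosome 2 from 137081456 to 137116644, minus strand), which encodes Jagged1, had the most reads of the 10 genes. It had 2942, 3038 and 2908 reads with DMSO and 4923, 4841, 5103 and 4919 with purmorphamine. The groups were far apart relative to their spread, at a log2 fold change of 0.69 ± 0.0446 (SE), with adjusted p = 1.11e-09 by edgeR. Dll1 (ENSMUSG00000014773, chromosome 17 from 15367354 to 15376872, minus strand), which encodes Delta-like 1, had few reads, with 15, 14 and 8 in DMSO and 7, 5, 2 and 12 with purmorphamine. The groups overlapped, and the log2 fold change of -0.96 ± 0.426 (SE) had an adjusted p of 0.0763 by edgeR. The exact permutation test, two-sided, gave p = 0.114. Dll1 lost its call without DMSO replicate 2 (log2 fold change -0.79, adjusted p = 0.233 by edgeR) and did not pass the filter without purmorphamine replicate 8. The reads of Jag1 per read of Dll1 ran from 196 to 364 with DMSO and from 410 to 2552 with purmorphamine. These did not overlap, yet the exact permutation of the mean log2 ratios gave p = 0.0571, also 0.0571 after adjustment. Jag2 had 2, 7 and 3 reads with DMSO and 0, 1, 1 and 2 with purmorphamine. Dll4 had at most 4 in any library, and Dll3 has no row in the table used.

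Hes1 (ENSMUSG00000022528, chromosome 16 from 30064384 to 30067796, plus strand), the repressor most commonly read out as a Notch target, had 216, 261 and 215 reads with DMSO and 761, 771, 799 and 814 with purmorphamine. The lowest treated library was well above the highest control, and the log2 fold change came to 1.72 ± 0.0744 (SE), with adjusted p = 6.76e-12 by edgeR, or 3.30-fold. Hey1 (ENSMUSG00000040289, chromosome 3 from 8663359 to 8667256, minus strand), a repressor of the same kind, had 98, 98 and 78 reads with DMSO and 249, 194, 239 and 273 with purmorphamine. Again the groups did not overlap, and the log2 fold change came to 1.34 ± 0.129 (SE), with adjusted p = 2.06e-07 by edgeR, or 2.53-fold.

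Hey2 (ENSMUSG00000019789, chromosome 10 from 30832359 to 30842801, minus strand), a close relative of Hey1 known for its part in heart and arterial development, did not pass the test. It had 211, 208 and 199 reads with DMSO and 242, 192, 168 and 210 with purmorphamine, with treated libraries on both sides of the controls. The log2 fold change was -0.07 (95% interval from -0.30 to 0.16, adjusted p = 0.639 by edgeR), an interval that lies below the estimates for Hes1 and Hey1. Heyl (ENSMUSG00000032744, chromosome 4 from 123233556 to 123249875, plus strand), the third member of the Hey family, had 8, 2 and 4 reads with DMSO and 7, 6, 6 and 5 with purmorphamine. Nrarp (ENSMUSG00000078202, chromosome 2 from 25180758 to 25183339, plus strand) had 2, 3 and 1 reads with DMSO and 4, 6, 4 and 2 with purmorphamine. For both the groups overlapped, neither passed the filter, and no difference was detectable at this depth (exact permutation tests, two-sided, p = 0.429 for Heyl and 0.171 for Nrarp).

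Whether the targets changed by unequal amounts was tested within libraries. The reads of Hey2 per read of Hes1 fell from 0.977, 0.797 and 0.926 with DMSO to 0.318, 0.249, 0.21 and 0.258 with purmorphamine. Those of Hey1 per read of Hes1 were 0.454, 0.375 and 0.363 with DMSO and 0.327, 0.252, 0.299 and 0.335 with purmorphamine, so the rise of Hes1 was the larger of the 2 by a small margin. Neither ratio overlapped between treatments (p = 0.0286 by exact permutation, adjusted 0.0343). The ratio of Heyl to Hes1 gave the same p with 1 read added to each count, but 0.0571 (exact permutation test, two-sided) with 0.5 read added, where its groups overlapped. For Nrarp to Hes1 no test was made, as Nrarp had at most 3 reads in any DMSO library.

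**Figure D3:**
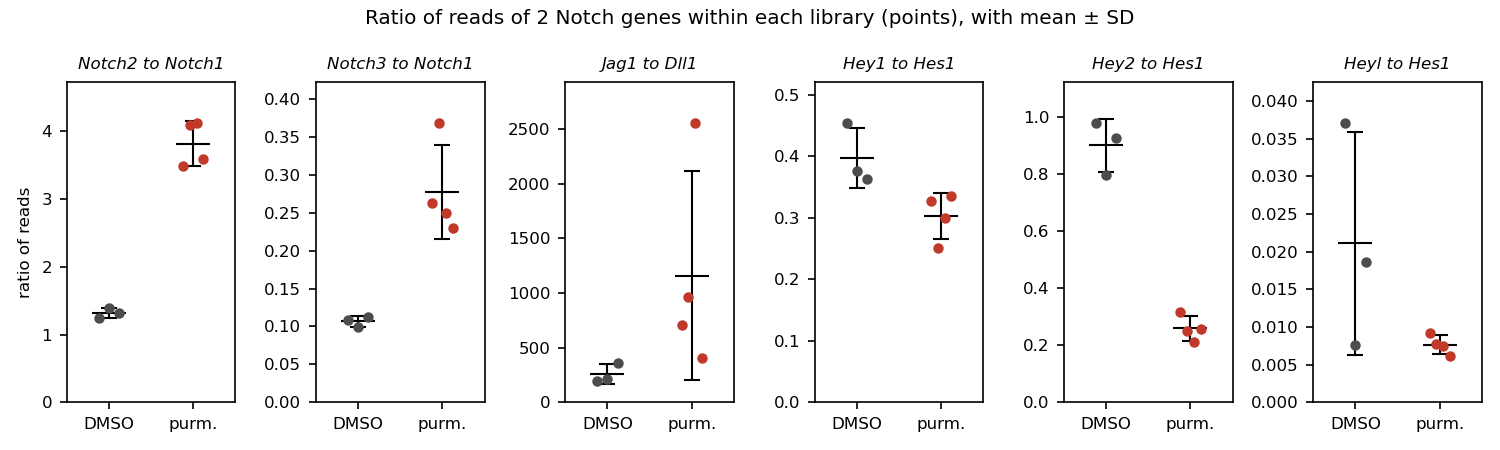
Ratio of the reads of 2 Notch genes within each library (y axis, from 0) for the 6 ratios tested, in DMSO (grey, 3 libraries) and purmorphamine (red, 4 libraries), with the mean and SD as black bars. Notch2 to Notch1 is 1.24 to 1.39 with DMSO and 3.48 to 4.11 with purmorphamine, and Hey2 to Hes1 is 0.797 to 0.977 and 0.21 to 0.318. Heyl to Hes1, drawn with nothing added, overlaps.

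Among the 8 genes tested, the deposited counts of the groups did not overlap in 5 that were higher (Notch2, Notch3, Jag1, Hes1 and Hey1) and 1 that was lower (Notch1) with purmorphamine. Over all genes tested this held for 29.1% in the higher and 20.4% in the lower direction. As the 8 genes were chosen with earlier results of these data known, this too is a description. The order of levels per kilobase also differed between the treatments. With DMSO, Jag1 was first at 528 ± 12.0 reads per kb (SD, n = 3), then Hes1 (157 ± 17.9), Notch2 (143 ± 10.9), Notch1 (120 ± 2.5), Hey2 (80.8 ± 2.45), Hey1 (37.7 ± 4.77), Notch3 (15.1 ± 0.752), Dll1 (3.44 ± 1.06), Heyl (1.03 ± 0.673) and Nrarp (0.775 ± 0.387). Neighbours in that order whose libraries overlapped were Hes1 with Notch2 and Heyl with Nrarp. With purmorphamine, Jag1 was at 881 ± 19.8 (SD, n = 4) and Hes1 at 536 ± 16.7, the latter now clear of Notch2 at 204 ± 10.8. Hey1 (98.5 ± 13.6) stood beside Hey2 (79.6 ± 12.2), with libraries that overlapped, and both were above Notch1 (59.5 ± 3.57). Notch3 (19.5 ± 4.35) followed, with no overlap with Dll1. The libraries of Dll1, Nrarp and Heyl overlapped with one another, at 1.32 to 1.82 reads per kb on average.

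**Figure D4:**
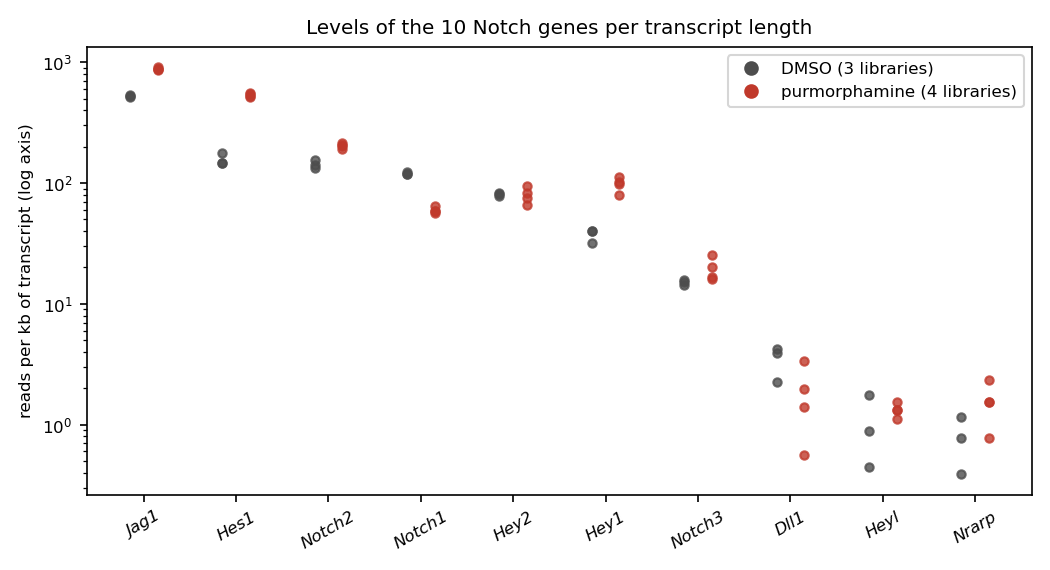
Reads per kilobase of transcript (y axis, log scale) for the 10 Notch genes, ordered by their DMSO mean, one point per library, in DMSO (grey) and purmorphamine (red). Jag1 and Hes1 reach 881 and 536 reads per kb with purmorphamine, while the means of Dll1, Heyl and Nrarp lie between 0.775 and 3.44 in both groups.

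The wider pathway was counted over 58 other genes, of which 53 have a row and 46 passed the filter. Of those 46, 16 (34.8%) rose and 18 (39.1%) fell at an adjusted p under 0.2 (edgeR), shares near the 31.4% and 31.1% over all genes tested, and their median log2 fold change was -0.03. Without Rbpjl, described with the corepressors, 15 of 45 rose. With the 10 genes above included, 21 rose and 20 fell, so that rises made up 51.2% of the calls, against 27 and 14 (65.9%) when library totals alone were used in place of TMM factors. The median log2 fold change over all genes was shifted by 0.0475 in that scaling. The shares of all genes called, here and for the roles below, are those with TMM factors and were not counted by library totals alone. Counts by library totals alone therefore have no such share beside them.

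Both noncanonical ligands that passed the filter fell, while Dlk2 had at most 8 reads in any library. Among all genes tested, 31.1% fell. Dlk1, a Delta-like protein known as preadipocyte factor 1, had 70, 76 and 94 reads with DMSO and 37, 49, 36 and 32 with purmorphamine, for a log2 fold change of -1.10 ± 0.171 (SE), with adjusted p = 4.86e-05 by edgeR. Dner, a transmembrane protein with EGF-like repeats, went from 565 ± 31.0 to 434 ± 53.4 reads (SD, n = 3 and 4), a log2 fold change of -0.43. The groups of Dlk1 and Dner did not overlap, which was a condition for naming them.

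Among the 4 sugar transferases tested, which modify the EGF-like repeats of the receptors, 2 rose and 2 fell (50% each). The shares over all genes tested were 31.4% and 31.1%. Lfng, which encodes Lunatic fringe, had 58, 72 and 68 reads with DMSO and 49, 31, 37 and 44 with purmorphamine (log2 fold change -0.76 ± 0.172 (SE), adjusted p = 0.00161 by edgeR). Rfng, which encodes Radical fringe, rose by 0.27 and Poglut1, an O-glucosyltransferase, fell by 0.15 on the log2 scale.

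Of the 10 genes for proteases and their subunits, 2 rose (20%) and 6 fell (60%), or 2 and 4 by library totals alone. Over all genes tested, 31.4% were called higher and 31.1% lower, but the list was made with earlier results of these data known. Of the 6 that fell, Adam17, Ncstn and Aph1c had groups that overlapped in the deposited counts. At an adjusted p under 0.05 (edgeR), 2 rose and 3 fell. The median log2 fold change of the 10 was -0.098. Psen2, a catalytic subunit of γ-secretase, had 123, 121 and 138 reads with DMSO and 215, 228, 155 and 191 with purmorphamine, for a log2 fold change of 0.58 ± 0.125 (SE), with adjusted p = 0.00102 by edgeR. Furin, which processes newly made receptors, and Aph1b, another subunit of γ-secretase, fell by 0.48 and 0.47 on the log2 scale (adjusted p = 2.93e-05 and 1.58e-05 by edgeR). Adam10, the protease of the first ligand-induced cut, fell by 0.17 on the log2 scale, with 3524 to 3563 reads with DMSO and 3057 to 3421 with purmorphamine.

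Ubiquitin ligases and endocytic adaptors, which control the traffic of ligands and receptors, had 7 of 10 genes called higher (70%) and 1 lower (10%), or 8 and 0 by library totals alone. Over all genes tested these shares were 31.4% and 31.1%, but the list was made with earlier results of these data known. The median log2 fold change of the 10 was 0.27. Of the 7, Dtx3 had groups that overlapped in the deposited counts, and Mib2 and Dtx4 overlapped after TMM scaling. Dtx2, a Deltex ubiquitin ligase, had 120, 112 and 122 reads with DMSO and 213, 235, 180 and 181 with purmorphamine (log2 fold change 0.73 ± 0.114 (SE), adjusted p = 5.18e-05 by edgeR). Neurl1b, a Neuralized ligase that acts on ligands, rose by 0.64 and Numbl, a relative of the Notch inhibitor Numb, by 0.49 on the log2 scale (adjusted p = 0.00129 and 0.000454 by edgeR). Dtx2, Neurl1b and Numbl had groups that did not overlap, which was a condition for naming them.

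In the nuclear complex, Rbpj, the DNA-binding partner of the receptors, had 963, 955 and 987 reads with DMSO and 1052, 1052, 1038 and 991 with purmorphamine. These did not overlap as deposited but did after TMM scaling, and its log2 fold change of 0.05 had an adjusted p of 0.467 by edgeR. Maml2, a Mastermind coactivator, fell from 2588 ± 55.9 to 1833 ± 124 reads (SD, n = 3 and 4), a log2 fold change of -0.54 ± 0.0539 (SE), with adjusted p = 2.78e-07 by edgeR. Of the acetyltransferase genes, Kat2a was lower by 0.32 and Kat2b higher by 0.14 on the log2 scale. Their groups did not overlap, which was a condition for naming them. In all, 2 of the 9 genes rose (22.2%) and 3 fell (33.3%), against 31.4% and 31.1% over all genes tested. By library totals alone the counts were 5 and 2, in a scaling that also shifted the median log2 fold change over all genes by 0.0475.

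Of 9 genes listed as corepressors, 2 rose and 4 fell. This leaves out Rbpjl, which passed the filter through the purmorphamine libraries alone. With it the counts were 3 and 4 (30% and 40%), or 5 and 2 by library totals alone. The shares over all genes tested were 31.4% and 31.1%. Hdac2, a histone deacetylase, had 3764, 3644 and 3580 reads with DMSO and 2951, 2765, 3080 and 3328 with purmorphamine (log2 fold change -0.32 ± 0.0562 (SE), adjusted p = 0.000168 by edgeR). Rbpjl, which is no corepressor but a relative of Rbpj known as a subunit of a pancreatic transcription factor, had 3, 5 and 4 reads with DMSO and 20, 8, 20 and 14 with purmorphamine.

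**Figure D5:**
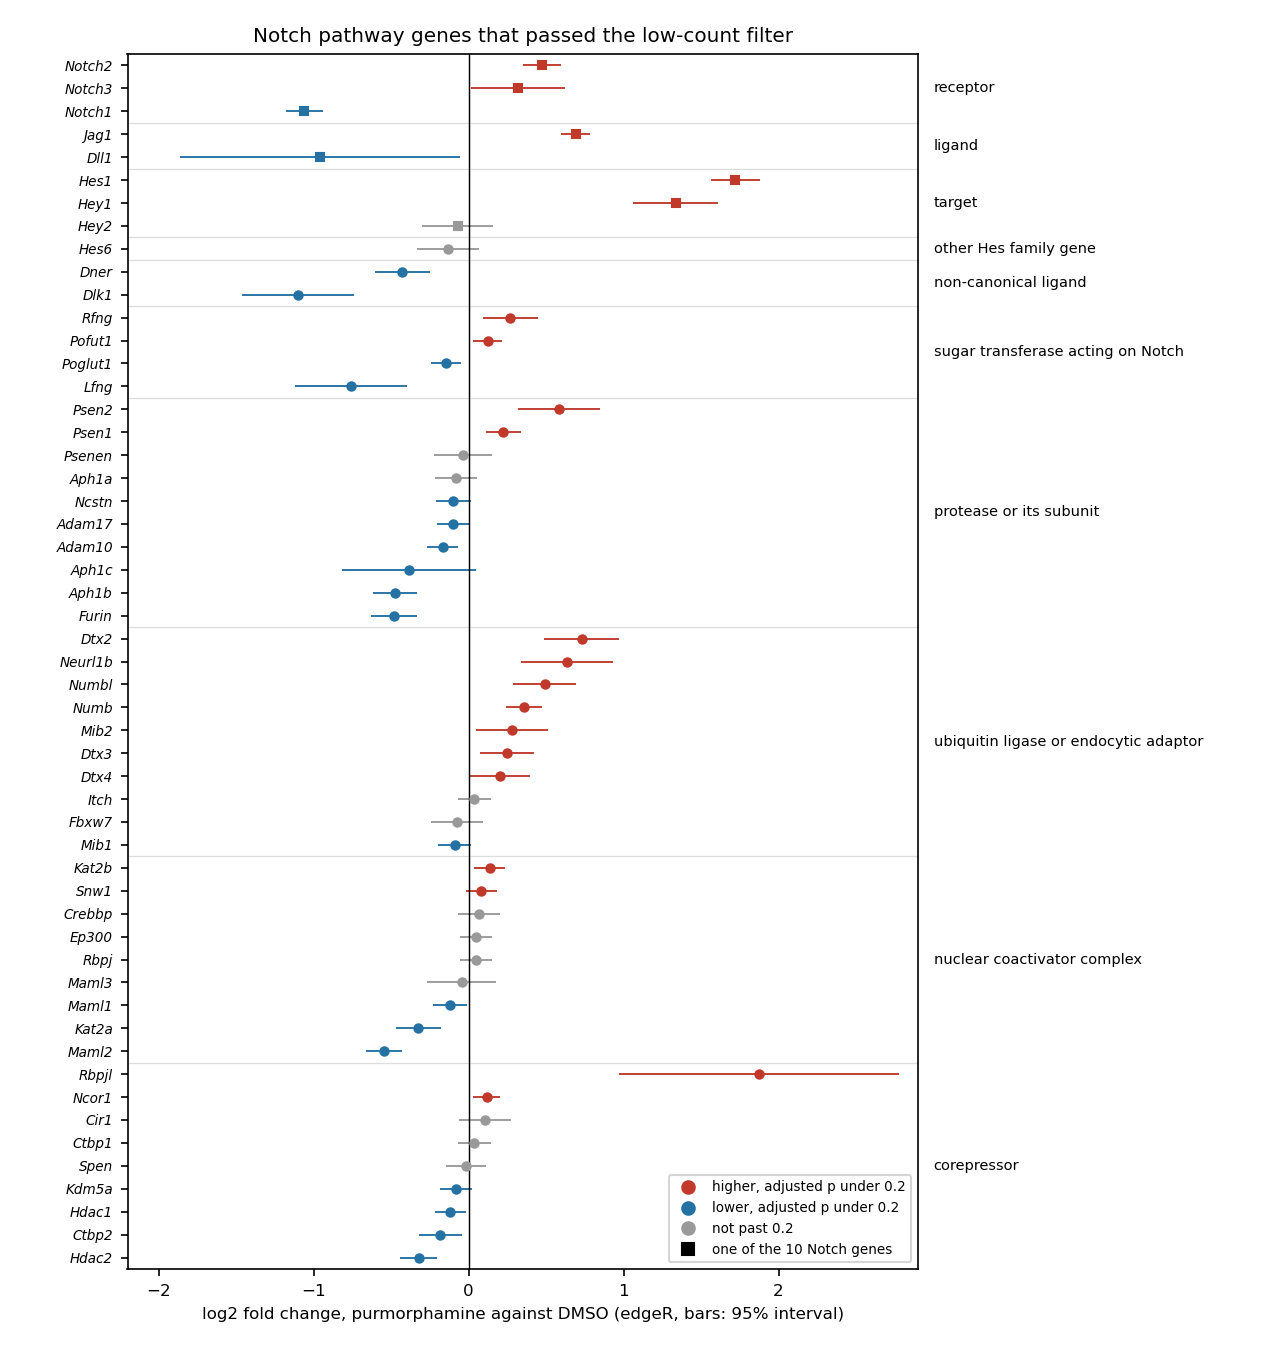
Log2 fold change of purmorphamine against DMSO by edgeR (x axis) with its 95% interval for 53 of the 54 pathway genes that passed the filter, grouped by role, with squares for the Notch genes described first. Red points passed an adjusted p of 0.2 as higher, blue points as lower, and grey points did not pass. The point furthest right, at 1.88, is Rbpjl, drawn with the corepressors, which passed the filter through the purmorphamine libraries alone. Hes1 and Hey1 stand to the right at 1.72 and 1.34, and Notch1 and Dlk1 to the left at -1.06 and -1.10.

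Markers of other cell types were counted in the same libraries, since endothelial and mural cells are rich in Notch components. Of 8 endothelial markers, 2 passed the filter. Tek rose from 770 to 816 reads to 1870 to 2124. Cdh5 had 0 in each DMSO library and 21 to 26 with purmorphamine, at least 7.75-fold higher against that floor of 3 reads, but it passed the filter through the purmorphamine libraries alone, so its call is no separate support. Pecam1, Kdr, Tie1, Emcn and Vwf had at most 5 reads in any library, and Cldn5 has no row. The summed endothelial markers, mostly reads of Tek, ran from 781 to 823 with DMSO and from 1899 to 2154 with purmorphamine. The summed mural and smooth muscle markers ran from 10738 to 11627 and from 5807 to 7466. Most of that sum was Acta2, with 9332 to 10192 reads with DMSO and 4438 to 5974 with purmorphamine. Of the 6 mural and smooth muscle markers tested, Acta2, Tagln, Cnn1 and Rgs5 were lower, Cspg4 was higher and Myh11 was not called. Des had at most 6 reads in any library and did not pass the filter. Over all genes tested, 31.4% were higher and 31.1% lower by the same calls. Blood markers summed to at most 21 reads. Of 6 epithelial markers, 3 had no row, and Krt8 and Krt14 had at most 1 read in any library. Cdh1 rose from 14 to 21 reads to 110 to 135. The part of these marker changes, the mesenchymal ones included, in the Notch genes was not tested.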

How the data were processed

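RNA from C3H10T1/2 cells was sequenced as single reads of stranded, ribosomal RNA-depleted libraries. Per the labels' processing notes, STAR 2.5.3a and mm9 were used. The authors resampled the reads to equal numbers, counted sense-strand reads per gene and deposited these counts, so the counts already include that normalization. No annotation is given in the sources used here. All 7 columns were mapped to their treatment by title, and 0 per-sample columns were left unused. No batch is given in the labels.

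Purmorphamine was compared with DMSO by the quasi-likelihood test of edgeR 4.0.16 (R 4.3.3). Libraries were scaled by TMM (factors 0.978 to 1.02), and genes were kept by the default filter, which asks for a minimum count of 10 and a sum of 15. Calls were made where the Benjamini-Hochberg value was below 0.2, the FDR of the study. The study's own test, limma-voom, and DESeq2 were alternatives, as were other scaling, other filters, a threshold of 0.05 and each library left out in turn. Single genes and ratios (1 read added) were compared by an exact permutation test (SciPy 1.17.1) of the absolute difference of means over the 35 assignments of the libraries. The edgeR step was also run on simulated counts in which few genes changed. In these data 62.5% of the genes tested were called, so that run is no support for the calls.

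Named genes were the 10 genes, up to 3 others of each role, taken by absolute log2 fold change among those called, averaging 10 reads or more and with groups that did not overlap, and Gli1 and Ptch1. Genes described beyond these (Notch4, Jag2, Dll4, Dlk2, Hes6, Hes7, Rbpj, Adam10, Adam17, Ncstn, Aph1c, Mib2, Dtx1, Dtx3, Dtx4, Neurl1a and the markers) were chosen after their values were seen or are markers. Of the listed genes, 1 is counted but not reported here. The genes and lists were chosen with earlier results of these data known. Positions are from GENCODE M21 (GRCm38) by Ensembl identifier, since the table's own regions are of another build and most often 400 bases wider than the gene.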

Additional observations from a re-analysis of the deposited data

How the results depend on the processing

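No paired analysis was possible because no replicate number occurs in both groups. Of 499 values recomputed under an alternative, 488 kept direction and side of the threshold (for ratios and genes below the filter, lay within 1 SD, and for counts of calls, within 1.5 times). Notch1, Notch2, Jag1, Hes1 and Hey1 kept theirs in each of them. An alternative in which a gene did not pass the filter gave no fold change for that gene and is not among the 499. This left out some alternatives for Dll1, Rbpjl and Gli1. The number of the 10 genes that fell was 2, but it was 1 when at least 10 counts were required in every library, which removes Dll1 from the test, and 1 at an adjusted p under 0.05. With single libraries left out it ran from 1 to 2. The number that rose was 5, and 4 at an adjusted p under 0.05, without DMSO replicate 3 and without purmorphamine replicate 6, each time through Notch3. Over the whole pathway list 20 genes fell, but 13 at an adjusted p under 0.05, 14 by library totals alone, 16 by DESeq2 and 14 to 19 on leaving out 1 library, the lowest being without DMSO replicate 4. The number that rose was 21, or 18 at 0.05, 27 by library totals alone and 19 to 22 with single libraries left out. The log2 fold change of Hey2, not called under any alternative, ran from -0.16 to 0.016 with single libraries left out, being above 0 without purmorphamine replicate 7. The adjusted p of Notch3 ran from 0.0261 to 0.231 and that of Dll1 from 0.0484 to 0.233 over their alternatives, and the cause was not tested. Depth limits Heyl, Nrarp, Notch4, Jag2 and Dll4, at most 8 reads in any library, and Dll1, at most 15.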

Other observations

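Dtx1, a Deltex ubiquitin ligase known as a Notch target in lymphocytes, was below the filter and was picked out after its values were seen. It had no reads in any DMSO library and 4, 4, 6 and 5 with purmorphamine, at least 1.58-fold higher against 3 reads. Neurl1a, which encodes a Neuralized ligase, also fell short of the filter, with 2, 7 and 2 reads with DMSO and 17, 11, 9 and 6 with purmorphamine, and its groups overlapped. Hes6, the Hes family gene outside the 10 with enough reads to test, had 207 to 224 reads with DMSO and 185 to 224 with purmorphamine (adjusted p = 0.261 from edgeR), while Hes7 had at most 5 in any library.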
